A study of Mus musculus with 20 samples.

Results

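5-Formylcytosine (5fC) regions that *Tdg* null hindbrain and carcass had in common, and that null heart and liver lacked, were collected from peak lists of E11.5 mouse embryos. A region was an autosomal stretch of 100 bp bins covered by a peak in all 4 null hindbrain and both null carcass libraries, touching no peak of both null hearts or of the null liver of embryo i1, and at least 200 bp long. The rule found 12326 such regions among 47090 stretches shared by the 6 null hindbrain and carcass libraries, or 26.2% of them. They are called hindbrain and carcass regions from here on. Since null peaks chose them, the null libraries are given as a description and are not tested.

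5fC is formed when TET enzymes oxidise 5-methylcytosine by way of 5-hydroxymethylcytosine, and thymine DNA glycosylase (TDG) excises it so that base excision repair can restore an unmodified cytosine. Without TDG this excision is absent and 5fC accumulates, though it may also be lost passively as DNA replicates. Most methylation in embryonic tissues is at CpG dinucleotides, and 5fC is known to gather at regulatory DNA such as enhancers.

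The data comprised 20 libraries of 12 embryos from 6 litters at E11.5. In the null allele a neomycin resistance cassette stands in place of the sequence that encodes TDG's catalytic part, and null and wild-type (WT) embryos were littermates from intercrosses of heterozygotes. Hindbrain came from 4 WT and 4 null embryos of litters A, O, Q and Z, with 1 embryo of each genotype a litter. Heart, liver and carcass came from 2 WT embryos (i6 and i9) and 2 null embryos (i1 and i5), so that these 3 tissues share an embryo, and the carcass is what remained of the embryo after the other tissues were taken. Each library is bulk tissue, so fewer cells that carry 5fC at a site and less 5fC per cell cannot be told apart. No RNA or cell marker was measured in these files, so the tissue labels could not be checked against defining genes. The number of autosomal peaks ranged from 100553 to 251271 in the 9 null libraries used and from 1507 to 41464 in the 10 WT libraries. The null liver of embryo i5 had 206 autosomal peaks and was not part of the rule. Its peaks covered only 0.0036% of the ungapped autosomes and touched 0 of the 12326 regions. With so little covered, this says nothing about 5fC at the regions in that liver. Peaks carry positions without read counts, so the depth behind each peak is unknown.

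Sequences of 6 hindbrain and carcass regions are shown first, because their CpG sites and the short motifs described further on can be read in them. Each is the central 300 bases of a region in the NCBIM37 assembly (mm9), in lower case with every CpG dinucleotide in capitals. The first set comes from the 3 longest regions without untranslated or non-coding exon sequence, with 1 autosome left aside for printing. These 3 regions were 2200, 2100 and 2000 bp long, and their central stretches held 5, 4 and 5 CpG dinucleotides.
chr13:70355851-70356150, plus strand: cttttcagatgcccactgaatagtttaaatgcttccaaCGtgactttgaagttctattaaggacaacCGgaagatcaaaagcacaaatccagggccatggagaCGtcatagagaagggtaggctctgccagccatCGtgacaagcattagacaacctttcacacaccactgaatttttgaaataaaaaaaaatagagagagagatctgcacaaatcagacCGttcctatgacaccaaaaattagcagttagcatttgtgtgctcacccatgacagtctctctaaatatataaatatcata
chr9:120947101-120947400, plus strand: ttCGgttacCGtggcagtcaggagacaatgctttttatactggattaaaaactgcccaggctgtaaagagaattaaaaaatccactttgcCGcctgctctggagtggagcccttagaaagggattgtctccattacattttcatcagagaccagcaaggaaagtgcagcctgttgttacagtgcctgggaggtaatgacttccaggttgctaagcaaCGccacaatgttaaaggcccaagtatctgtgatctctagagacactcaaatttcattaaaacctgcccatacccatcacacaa
chr10:125806351-125806650, plus strand: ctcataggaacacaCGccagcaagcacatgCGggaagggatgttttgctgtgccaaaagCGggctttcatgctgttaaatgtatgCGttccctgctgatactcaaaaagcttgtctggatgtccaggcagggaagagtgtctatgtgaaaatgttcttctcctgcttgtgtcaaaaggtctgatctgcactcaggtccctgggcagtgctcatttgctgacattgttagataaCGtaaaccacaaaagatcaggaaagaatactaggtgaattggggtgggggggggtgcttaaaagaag
The first of these was intergenic, 209.4 kb from the nearest protein-coding gene start (Gm6132), and the second lay in an intron of *Ulk4*. The third lay in no protein-coding gene, 403.2 kb from the start of *Lrig3*. WT libraries had a peak over only the third, in 2 libraries.

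The second set comes from regions under a peak in the most WT libraries, chosen from the same pool, with the longest taken where regions tied at 6. They were under 7, 7 and 6 of the 10 WT libraries, and all 4 WT hindbrains had a peak over each of them.
chr9:60929401-60929700, plus strand: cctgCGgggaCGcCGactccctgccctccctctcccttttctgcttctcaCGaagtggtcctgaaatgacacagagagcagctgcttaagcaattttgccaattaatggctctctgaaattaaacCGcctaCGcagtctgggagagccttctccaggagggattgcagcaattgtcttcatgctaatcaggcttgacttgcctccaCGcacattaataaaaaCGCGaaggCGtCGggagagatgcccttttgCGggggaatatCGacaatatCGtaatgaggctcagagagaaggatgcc
chr13:73146651-73146950, plus strand: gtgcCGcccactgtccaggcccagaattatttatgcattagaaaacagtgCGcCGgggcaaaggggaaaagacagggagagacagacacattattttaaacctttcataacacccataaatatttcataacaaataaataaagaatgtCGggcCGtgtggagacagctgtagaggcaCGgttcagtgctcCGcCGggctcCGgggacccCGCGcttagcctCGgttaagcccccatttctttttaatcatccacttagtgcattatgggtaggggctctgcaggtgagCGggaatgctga
chr2:5299701-5300000, plus strand: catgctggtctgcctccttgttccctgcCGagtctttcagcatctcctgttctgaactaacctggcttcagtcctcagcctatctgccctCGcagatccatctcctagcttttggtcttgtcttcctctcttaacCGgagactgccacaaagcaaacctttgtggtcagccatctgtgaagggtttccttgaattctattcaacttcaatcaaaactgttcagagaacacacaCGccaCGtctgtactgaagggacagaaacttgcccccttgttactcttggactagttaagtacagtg
The first was intergenic, 243.5 kb from the start of Gm9869 (a predicted gene), and its central stretch held 14 CpG dinucleotides. The second was intergenic, 251.1 kb from *Irx4*, an Iroquois homeobox gene, with 13 CpG dinucleotides. The third lay in an intron of *Camk1d*, a calcium/calmodulin-dependent kinase gene, with 5. Of the E-box motifs described further on, CAGCTG was in the first and second of these sequences and CATCTG in the third.

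The hindbrain and carcass regions were short and scattered. Their lengths had a median of 500 bp (interquartile range 400 to 700 bp) and a maximum of 2400 bp, and together they covered 6.91 Mb, or 0.289% of the ungapped autosomes. At the edge of the length rule, 685 regions were exactly 200 bp long and 126 stretches of 100 bp were left out. At the edge of the rule on heart and liver, 2.00% of the regions abutted a null heart or liver peak without sharing a bin, and 205 stretches were dropped for sharing a single bin. The nearest null heart or liver peak was a median of 3100 bp away, so most regions stood apart from such peaks rather than at their margins. The nearest stretch common to all null tissues was a median of 71750 bp away. Of the regions, 85.6% had no other within 10 kb. All 19 autosomes held them, at 4.37 (chromosome 3) to 5.91 (chromosome 11) regions per Mb. The chain with the most regions, with neighbours less than 10 kb apart, had 5 regions in 26 kb of chromosome 7 with no protein-coding gene (chr7:59020701-59046700). Chains of 4 lay, among other places, in *Grik3*, a kainate receptor subunit gene (chr4:125359201-125383700), and in *Dcc*, the netrin receptor gene (chr18:72391001-72416300).

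The null heart of embryo i1 set the number of regions more than the other excluded libraries. Of the 47090 stretches that null hindbrain and carcass shared, 68.9% touched a peak of the null heart of embryo i1, which had the most peaks of all libraries, 40.3% touched the null heart of embryo i5 and 44.3% the null liver of embryo i1. Without the heart of embryo i1 in the rule, 19671 regions were found in place of 12326.

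The first question was whether WT littermates, which the rule did not use, carried 5fC at the same places. The measure was a log2 fold, the share of the regions' bases under peaks of a WT library over the share of all ungapped autosomal bases under its peaks, which takes account of how much each library covers. WT hindbrain embryo Q3, with 21063 autosomal peaks, had a peak over 2438 of the 12326 regions (19.8%), a 35.2-fold excess in bases. Embryo O3, with 8902 peaks, had one over 1174 regions, a 39.3-fold excess. Embryos 2A8 and Z3, with 1515 and 1507 peaks, reached 164 and 75 regions, with excesses of 27.1-fold and 11.9-fold. All 4 WT hindbrains thus had more of their peaks at these regions than their covered length alone gives. The number of regions reached rose with the number of peaks called, but 2A8 and Z3 differed at nearly equal peak numbers. Of their peaks, 10.9% in 2A8 and 4.98% in Z3 lay on the regions.

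WT carcass of embryos i6 and i9 had peaks over 1992 and 1845 regions, with excesses of 13.1-fold and 14.5-fold. WT heart of the same embryos had peaks over 22 and 57 regions, at 0.753 and 2.66 times the genome share. WT liver had peaks over 147 and 8 regions, at 2.18 and 0.850 times. The WT liver of embryo i6 had 16368 peaks, more than 3 of the 4 WT hindbrains, and reached 1.19% of the regions. Against the bases under any null peak in place of the whole genome, the log2 folds were 1.12 to 2.63 in the 4 WT hindbrains, 1.08 and 1.23 in the carcasses, and -2.78 to -1.27 in hearts and livers. The order of the tissues stayed, and the sizes of the excesses depend on that background.

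**Figure D1:**
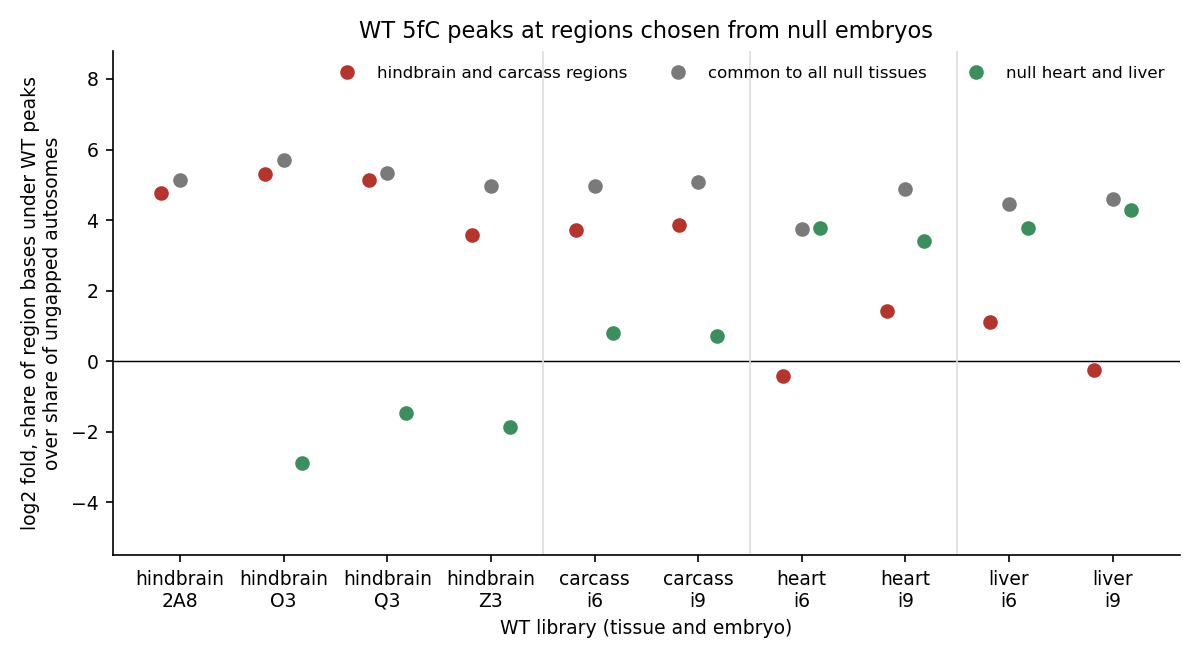
The vertical axis is the log2 fold of WT peaks at a set of regions over the ungapped autosomes, and each point is 1 WT library. At the hindbrain and carcass regions (red) the 4 hindbrain and 2 carcass libraries lie between 3.58 and 5.30 and the 4 heart and liver libraries between -0.41 and 1.41, while regions shared by null heart and liver (green) show the opposite order and regions common to all null tissues (grey) are high throughout. The heart and liver set has no point for hindbrain 2A8, which had no peak there.

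As log2 folds, WT hindbrain averaged 4.69 ± 0.78 (SD, n = 4 embryos), carcass 3.79 ± 0.10 (n = 2), heart 0.50 ± 1.29 (n = 2) and liver 0.45 ± 0.96 (n = 2). With the heart and liver of an embryo averaged first, hindbrain exceeded them by 4.22, an 18.6-fold difference, and the groups did not overlap. A two-sided exact permutation test of 4 against 2 embryos gave p = 0.0667, the smallest of its 15 assignments, so this design cannot reach 0.05. With each library counted as a sample, 6 hindbrain and carcass libraries exceeded 4 heart and liver libraries by 3.92 (exact permutation p = 0.00476 of 210 assignments), but libraries of 1 embryo are not independent. WT hindbrain and WT heart or liver come from different litters, so tissue and litter cannot be told apart in that comparison. Carcass, heart and liver come from the same embryos, and there carcass exceeded the mean of heart and liver by 3.36 in embryo i6 and by 3.27 in embryo i9. These 2 pairs are too few for an exact test to reach 0.05.

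Other sets built by the same rule placed these values. Regions under peaks of all 9 null libraries (12316 common regions) had WT hindbrain folds higher in all 4 embryos, with hindbrain and carcass regions at -0.59 ± 0.54 relative to them on the log2 scale (n = 4). Regions under null hindbrain peaks alone (2832) were also higher in all 4 WT hindbrains, by 2.01 ± 1.96 on average and by only 0.07 in Q3. By the share of regions touched in place of bases, the difference was -1.21 and Q3 turned, with 19.8% of the hindbrain and carcass regions against 15.8% of the hindbrain-only regions (exact sign-flip permutation p = 0.375). By bases, both differences gave the smallest p that a two-sided exact sign-flip permutation of 4 embryos allows, which is above 0.05. Without embryo Z3 they were -0.33 and -1.27. The hindbrain-only regions were 57.8-fold and 58.6-fold over the genome in the 2 WT hearts as well. WT hindbrains Q3, O3, Z3 and 2A8 touched 28, 6, 2 and 0 of the 11517 regions of null heart and liver alone, and 126, 16, 1 and 0 of the 20711 regions of null carcass alone.

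Individual regions were seldom under several WT libraries. Of the 12326, 7747 (62.9%) had no WT peak, 2817 (22.9%) had one in a WT hindbrain, 2687 (21.8%) in a WT carcass and 225 (1.83%) in a WT heart or liver. WT hindbrain and carcass peaks met on 1004 regions, which are 35.6% of those under WT hindbrain and 37.4% of those under WT carcass. Most of the regions under WT hindbrain rested on embryo Q3, without which 1254 (10.2%) had a WT hindbrain peak and 490 had both. Peaks of 3 or more WT hindbrains lay over 136 regions, of all 4 over 17, and of all 6 WT hindbrain and carcass libraries over 12. Of the 12, 10 had no WT heart or liver peak. Among these 10 was an intron of a non-coding gene 41.7 kb from *Nkx2-2*, a homeobox gene of ventral neural progenitors (chr2:147061201-147062200). The regions under 7 WT libraries necessarily included a heart or liver library (liver i6 at the chromosome 9 region whose sequence is shown and heart i9 at the one nearest *Irx4*). The *Camk1d* region was under both WT hearts and no WT carcass, and an intergenic stretch 62.9 kb from *Psmd7* (chr8:110174801-110175800) was under 6 WT libraries with liver i6 among them.

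Regions that WT embryos also marked held more CpG. Mean CpG in the central 200 bp was 3.94 ± 1.99 (SD over regions) in the 7747 regions under no WT peak, 4.67 ± 2.15 in 1813 regions under WT hindbrain without carcass, 4.51 ± 2.10 in 1683 under WT carcass without hindbrain and 5.13 ± 2.35 in 1004 under both. It reached 5.82 ± 2.32 in the 136 regions under 3 or more WT hindbrains, whose median length was 700 bp against 500 bp for all regions. Among regions of 200 to 300 bp, 10.8% were under a WT hindbrain peak, and among those of 1000 bp or more, 36.2% were. CpG did not follow length in the same way, with 3.55 per central 200 bp in the shortest of these classes, 4.46 at 600 to 900 bp and 3.61 at 1000 bp or more. Without hindbrain Q3, mean CpG was 4.002, 4.904, 4.59 and 5.43 in these 4 classes, in the same order. GC content differed less, at 48.1% under no WT peak and 47.5% under both tissues' peaks.

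Most bases of the regions were intergenic or intronic, as in the genome. Of their bases, 51.7% were intergenic (58.2% of the ungapped autosomes), 42.9% intronic (38.4%) and 5.36% exonic (3.45%), the last including 2.47% in coding exons (1.44%). Promoters (1000 bp before an annotated start) held 2.11% (2.27%). The median distance from a region to the nearest annotated transcript start, coding or non-coding, was 32.1 kb. It was 29.1 kb for all autosomal bins, 20 kb for the common regions and 15.8 kb for regions of null heart and liver. Of the regions, 3.80% lay within 1 kb of a start, near the 4.17% of all bins. CpG islands of 200 bp or more, found in the unmasked assembly, held 2.44% of the bases (1.47% of the genome), and 2 kb shores 13.2% (10.1%). With stricter islands (at least 500 bp, a GC content of 55% and an observed over expected CpG ratio of 0.65) the order turned round, at 0.170% of the bases against 0.656% of the genome.

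The longest regions were spread over different kinds of sequence. A stretch of 2400 bp in *Trim62*, a tripartite motif gene, spanned intron and untranslated exon (chr4:128563701-128566100) and was under the WT carcass peak of embryo i6. A stretch of 2100 bp in *Sema6a*, which encodes a transmembrane semaphorin of axon guidance, held coding exon (chr18:47457501-47459600) and was under WT hindbrain Q3 and WT carcass i9. A stretch of 2000 bp in *Sars*, the seryl-tRNA synthetase gene and 10.5 kb from the start of *Celsr2*, held coding and untranslated exon (chr3:108228001-108230000) and was under WT hindbrain Q3.

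Base composition was close to that of null heart and liver regions, while the shares of several motifs were not. In the central 200 bp, GC content averaged 47.9% ± 5.71 (SD over regions) and CpG 4.22 ± 2.10, against 48.7% ± 5.43 and 4.02 ± 2.02 in regions of null heart and liver. All ungapped autosomal windows of that length averaged 41.9% GC and 1.69 CpG. Only 0.795% of the regions had no CpG in that window, against 30.0% of all windows. Motifs were then searched as exact letters on both strands of the same windows, and intervals are exact Clopper-Pearson 95% intervals that cover counting error only. Regions of 1 genome are not replicates, so no test was made.

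The E-box CATCTG, a site of proneural basic helix-loop-helix factors such as the neurogenins and NeuroD, was in 26.9% of the hindbrain and carcass windows (26.2 to 27.7). It was in 15.1% of heart and liver windows and in 15.04% of all windows. The E-box CAGCTG, bound by many factors of the same family, was in 20.5% (19.8 to 21.2), against 13.7% and 7.37%. Common regions held CAGCTG in 20.8% and CATCTG in 20.8%, and regions of null carcass alone held them in 15.8% and 23.7%. Regions of null hindbrain alone were lower for both, with CAGCTG in 14.8% and CATCTG in 17.97%. Either E-box was in 42.1% of the regions.

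TAATTA, the core site of many homeodomain factors, was in 9.27% of the windows (8.76 to 9.79), against 2.49% in heart and liver regions and 7.15% of all windows. It was in 7.71% of windows of null carcass alone, 5.12% of null hindbrain alone and 4.92% of common regions. Among 1509 words of 6 letters found in at least 5% of either set, TAATTA had the highest ratio between hindbrain and carcass and heart and liver regions, at 3.72. ATTAAT had the next ratio, at 3.41, and shares most of its letters with it. ACAATG, the core site of SOX factors, was in 15.2% (14.6 to 15.9), against 8.61% and 12.5%. Regions of null hindbrain alone held ACAATG in 18.2% (16.8 to 19.6), more than the hindbrain and carcass regions.

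The GATA site AGATAA showed the reverse order. It was in 6.56% of hindbrain and carcass windows (6.13 to 7.02), in 30.3% of heart and liver windows and in 13.2% of all windows, with common regions at 12.8%. Regions of null hindbrain alone held AGATAA in 5.79% and regions of null carcass alone in 9.30%, both also below the share of all windows. GATA factors are known regulators of heart, liver and red blood cell genes. AAAAATAG of MEF2 was in 0.787% against 1.74% in heart and liver regions and 1.83% of all windows. CCACACCC of KLF1-like factors was in 0.876% against 2.32% and 1.21%. TGATNNAT, the site of PBX and HOX dimers, was in 12.4% of the windows, close to the 12.04% of all windows, while regions of null carcass alone held it in 23.3% and regions of null hindbrain alone in 6.36%. Of the other motifs searched, TTGGCA (NFI), GGAATG (TEAD), TGTTTAC (forkhead), GGTGTGA (T-box), CAAAGTCC (HNF4), TTGCNNAA (C/EBP) and TGACTCA (AP-1) stood between 0.799 and 1.12 times their share in all windows.

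**Figure D2:**
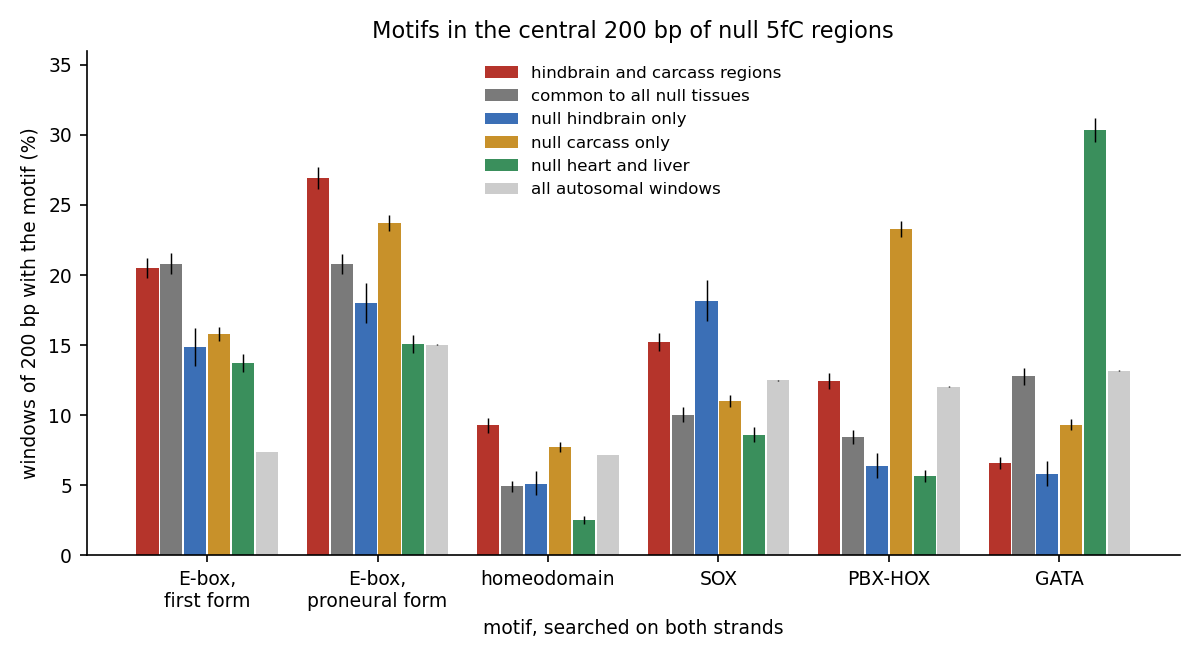
Bars give the percentage of central 200 bp windows that hold each motif in the 5 sets of null regions and in all ungapped autosomal windows, with 95% exact intervals for counting error. The E-box at the far left is CAGCTG and the proneural form is CATCTG. Hindbrain and carcass regions (red) are highest for the proneural E-box at 26.9% and heart and liver regions (green) for GATA at 30.3%.

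Both E-boxes were densest at the middle of the regions, and AGATAA was sparsest there. Within 100 bp of the midpoint, CATCTG occurred 1.61 times per kb and 0.836 times per kb at 750 to 1000 bp, a ratio of 1.93, and CAGCTG had a ratio of 2.66. Heart and liver regions had ratios of 0.987 and 1.45 for the same words, regions of null carcass alone 1.69 and 1.96, and common regions 1.42 and 2.33. TAATTA had a ratio of 1.30 in hindbrain and carcass regions and of 0.422 in heart and liver regions, and AGATAA 0.515 and 2.75. Regions of null hindbrain alone had a lower AGATAA ratio, at 0.459. CpG was denser near the midpoint in both sets, at 21.2 against 9.35 per kb here and at 20.2 against 10.9 per kb in heart and liver regions.

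**Figure D3:**
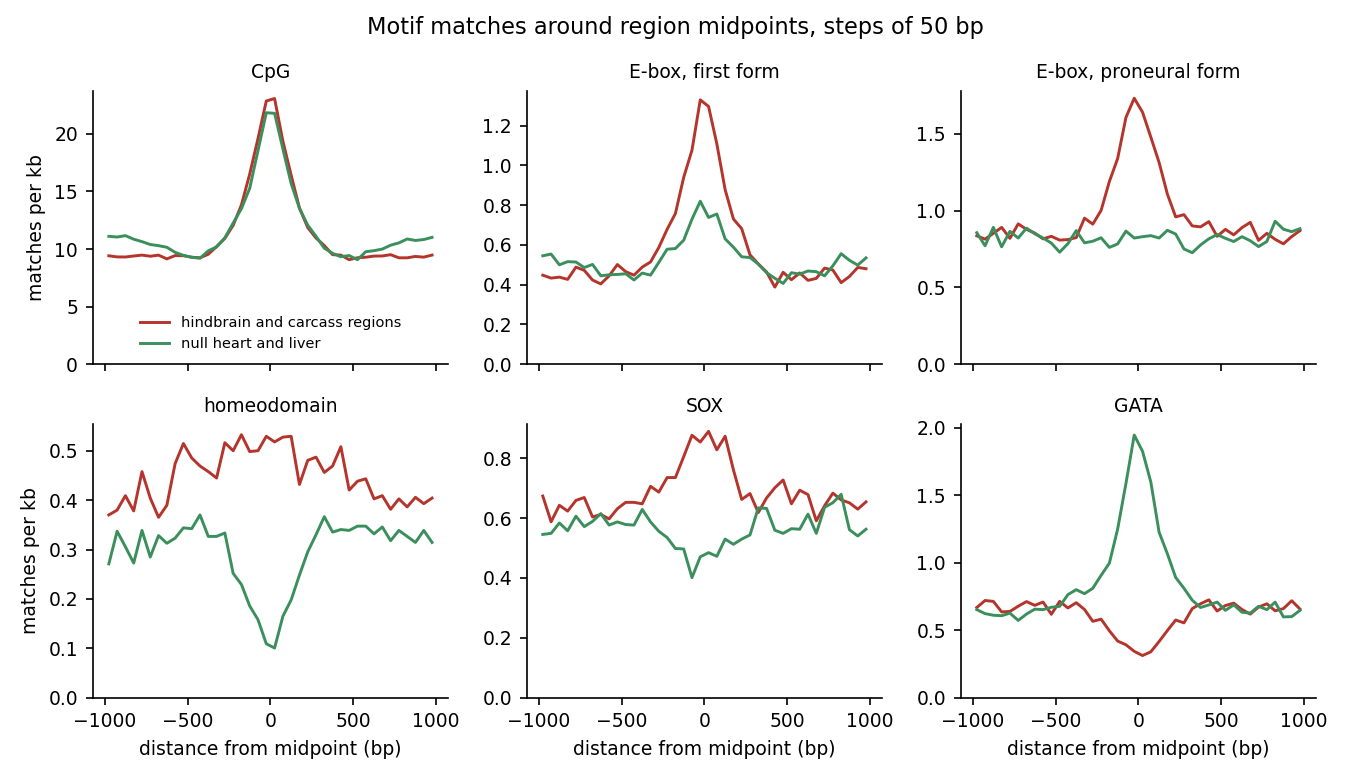
Each panel gives matches per kb in steps of 50 bp up to 1000 bp on either side of region midpoints, for hindbrain and carcass regions (red) and null heart and liver regions (green). CpG is highest at the midpoint in both sets, both E-box forms peak in red, and GATA dips in red to 0.348 per kb within 100 bp and peaks in green at 1.74.

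Motif shares also differed with the WT peaks over a region. TAATTA was in 12.1% and ACAATG in 21.0% of regions under WT hindbrain without carcass, in 8.91% and 11.3% of those under WT carcass without hindbrain, and in 8.42% and 14.8% of those under no WT peak. CATCTG had 23.0%, 28.8% and 27.9% in the same classes. Without hindbrain Q3 the shares were 10.3%, 9.60% and 9.002% for TAATTA, 23.0%, 12.1% and 15.3% for ACAATG and 18.98%, 28.0% and 27.7% for CATCTG, so the TAATTA classes lay closer together. Length and CpG differ between these classes too, and their part in the motif shares was not tested.

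The next question was which genes lay at these regions. Of 21418 protein-coding autosomal genes, 4248 (19.8%) had at least 1 region in the gene or within 10 kb, and 6476 of the regions (52.5%) lay in such a window. Since long genes catch more regions, lists are described both by the share of genes and by regions per Mb of window, beside 5.42 per Mb for all genes. The lists were chosen with earlier results of these data known and were not tested.

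Axon guidance and neural crest genes had the densest cover of the 15 lists. Of 40 axon guidance genes, 31 (77.5%) had a region, at 11.9 per Mb, but their median length was 175 kb against 15.5 kb for all genes. Regions of null heart and liver stood at 3.88 per Mb at the axon guidance genes, against 6.92 per Mb over all genes. Regions of null carcass alone were denser still at these genes, at 21.9 per Mb against 9.28 over all genes, and stood at 17.7 per Mb at neural crest genes and 21.6 per Mb at neuronal differentiation factors. Of 50 synapse and neural adhesion genes, 48 had one, at 9.60 per Mb, but the median length of these genes was 445 kb against 15.5 kb for all genes. Of 24 neural crest and peripheral nervous system genes 12 had one (11.8 per Mb), of 41 neural progenitor and patterning factors 15 (10.3 per Mb) and of 47 neuronal differentiation factors 16 (7.54 per Mb). Heart and liver regions stood above their all-gene density at the neural crest genes (7.85 per Mb) and the patterning factors (8.25 per Mb). Common regions stood at 13.9 per Mb at the patterning factors and 12.1 at the differentiation factors, against 6.85 over all genes. At axon guidance, neural crest and synapse genes they stood at 7.85, 7.07 and 4.59 per Mb. Regions of null carcass alone stood at 17.3 per Mb at the patterning factors and 15.1 at synapse genes.

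*Dcc*, the netrin receptor that guides commissural axons, held 20 regions in 1092 kb, 6 of them under a WT hindbrain peak and 2 under a WT carcass peak, beside 1 heart and liver region and 36 regions of null carcass alone. *Epha3*, an ephrin receptor, and *Unc5c*, a repulsive netrin receptor, held 9 each, and *Unc5c* had no heart and liver region. *Dab1*, the adaptor of reelin signalling in neuronal migration, held 20, and *Auts2*, a gene of neural development, and *Cdh13*, a cadherin without a cytoplasmic part, held 18 and 16 with their 10 kb flanks. In *Dab1* and *Cdh13*, 8 regions each were under a WT carcass peak and 4 under a WT hindbrain peak.

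Of the patterning factors, *Pax2*, which marks the midbrain-hindbrain boundary and spinal interneurons, held 6 regions at 58.7 per Mb with no heart and liver region. *Pax7*, of dorsal neural tube and muscle progenitors, held 5 at 42.9 per Mb, and *Pax5* held 5 at 24.96 per Mb. Among differentiation factors, the zinc finger genes *St18* and *Myt1l* held 5 each and *Prdm16* 3. *Ntrk2*, the receptor of brain-derived neurotrophic factor, held 8, of which 3 were under WT hindbrain and 2 under WT carcass peaks. *Gfra1*, the coreceptor of GDNF, held 6 and *Ntrk3*, the receptor of neurotrophin 3, held 3.

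Lists of trunk and signalling genes are read beside 19.8% of genes and 5.42 regions per Mb for all genes. Of 27 skeletal muscle genes 8 had a region, at 10.2 per Mb, with *Eya4* at 5 regions and *Pax3*, a gene of both dorsal neural tube and myogenic progenitors, at 4 in 95.9 kb. *Pax7* (5 regions) and *Pax3*, both also genes of the neural tube, are among the leading genes of that list, which holds 23 regions in all. Of 43 limb, skeletal and mesenchyme genes 11 (25.6%) had one, at 7.72 per Mb, where *Sox5* and *Sox6*, partners in cartilage formation, held 13 and 5. The long *Fgfr2* model gave 27 of the 62 regions of that list, and without it 10 of 42 genes had one, at 6.99 per Mb. Of 55 Wnt, hedgehog and Notch pathway genes 16 (29.1%) had one, at 6.58 per Mb, led by *Gli3* with 4, *Lef1* with 3 and *Fzd10* with 2. At the muscle, limb and Wnt lists, regions of null carcass alone stood at 14.2, 17.55 and 18.5 per Mb, against 9.28 over all genes. Common regions stood at 5.33, 9.83 and 12.65 per Mb there, against 6.85 over all genes. None of 38 Hox genes had a region within 10 kb, where their windows cover only 0.514 Mb, although regions of null carcass alone stood at 23.4 per Mb there.

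Beside 19.8% of genes and 5.42 regions per Mb for all genes, heart genes were thinly covered. Of 29 heart genes 2 (6.90%) had a region, at 2.59 per Mb against 25.9 per Mb for regions of null heart and liver. These were *Cacna1c*, a calcium channel subunit gene also used in neurons, with 5 and *Ryr2*, the calcium release channel gene, with 2. Of 22 erythroid and blood genes 3 (13.6%) had 1 region each (*Gfi1b*, *Slc4a1* and *Ikzf1*), at 2.21 against 14.7 per Mb. In gene bodies alone their share was 13.6%, near the 13.97% of all genes. Of 25 endothelial genes 6 (24%) had one, at 3.87 per Mb, with 3 in *Vwf* and 1 each in *Tie1* and *Flt4*. Of 23 hepatocyte genes 4 (17.4%) had one, at 5.65 per Mb, among them *Cebpa* and *Ttr* with 1 each. Of 29 widely expressed genes 2 (6.90%) had one, *Gpi1* with 3 and *Pgam1* with 1. Of 15 genes of the TET, TDG and DNMT list 2 (13.3%) had one, *Dnmt3a* with 2 and *Smug1* with 1.

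**Figure D4:**
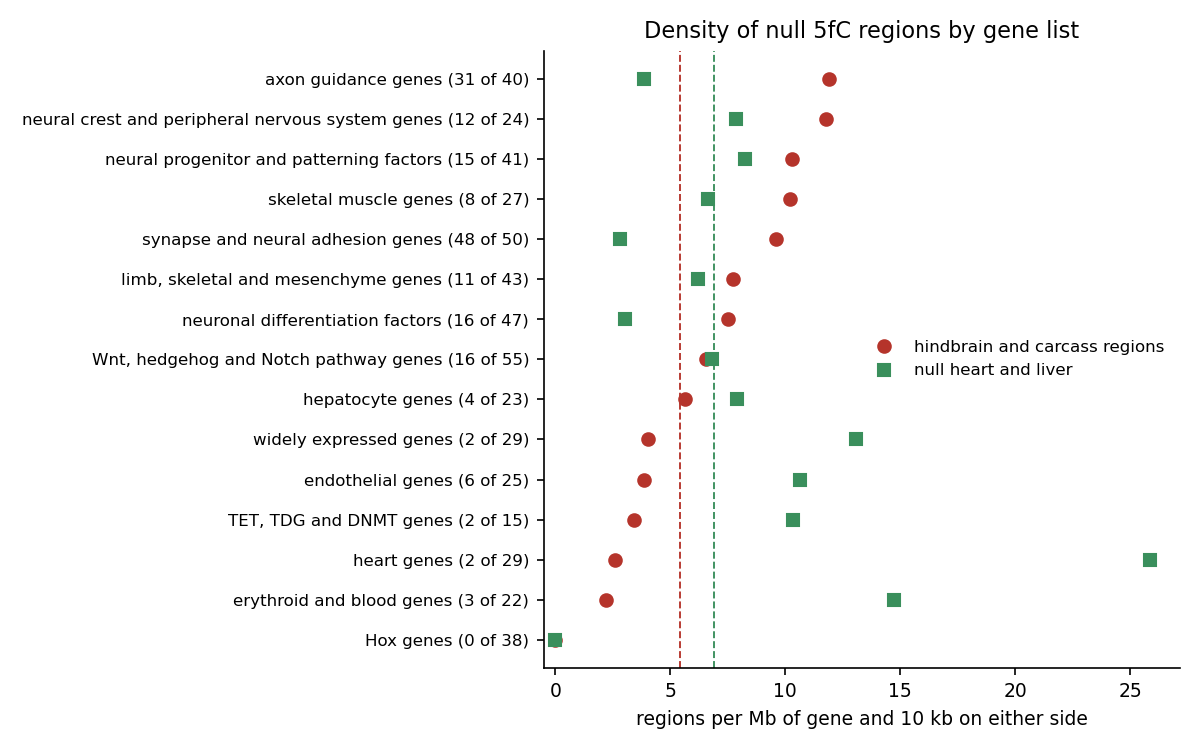
The horizontal axis is the number of regions per Mb of gene and 10 kb flanks for hindbrain and carcass regions (red circles) and null heart and liver regions (green squares), by gene list, with the number of genes that hold a hindbrain and carcass region in brackets. Dashed lines mark all protein-coding genes at 5.42 and 6.92 per Mb. Axon guidance genes are at 11.9 and 3.88, and heart genes at 2.59 and 25.9.

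The 20 genes with the most regions in their bodies held 339 regions, or 2.75% of all. They spanned 599.5 to 4435 kb, so that gene length enters this order. The highest counts, 27 in *Fgfr2* and 23 in *Gm20388*, came from gene models of 3009 and 4435 kb that enclose the starts of 31 and 73 other protein-coding genes, and are not read as counts for these genes. Of the other 18, each enclosed at most 1 other start. *Npas3*, a neural basic helix-loop-helix transcription factor gene, had the highest density of these at 23.1 per Mb, with 19 regions, 8 of them under WT hindbrain peaks. *Cacna2d3*, an auxiliary calcium channel subunit gene, and *Tmem132d* held 18 and 14 regions and no heart and liver region. *Wwox* (18), *Accn1*, an acid-sensing ion channel gene (18), *Nckap5* (17), *Alk*, a receptor tyrosine kinase gene (16), *Odz2*, a teneurin gene (16), *Nrxn3*, a presynaptic adhesion gene (15), *Pard3b*, a polarity gene (14), *Grip1*, a glutamate receptor scaffold gene (13), *Ptprt*, a receptor phosphatase gene (13) and *Sorcs3*, a sortilin-related receptor gene (12) held the rest, with *Dcc*, *Dab1*, *Auts2*, *Cdh13* and *Sox5* given above. Over all 20 genes, 90 of the 339 regions (26.5%) were under a WT hindbrain peak, 84 (24.8%) under a WT carcass peak and 5 (1.47%) under a WT heart or liver peak. These shares are near the 22.9%, 21.8% and 1.83% of all regions.

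**Figure D5:**
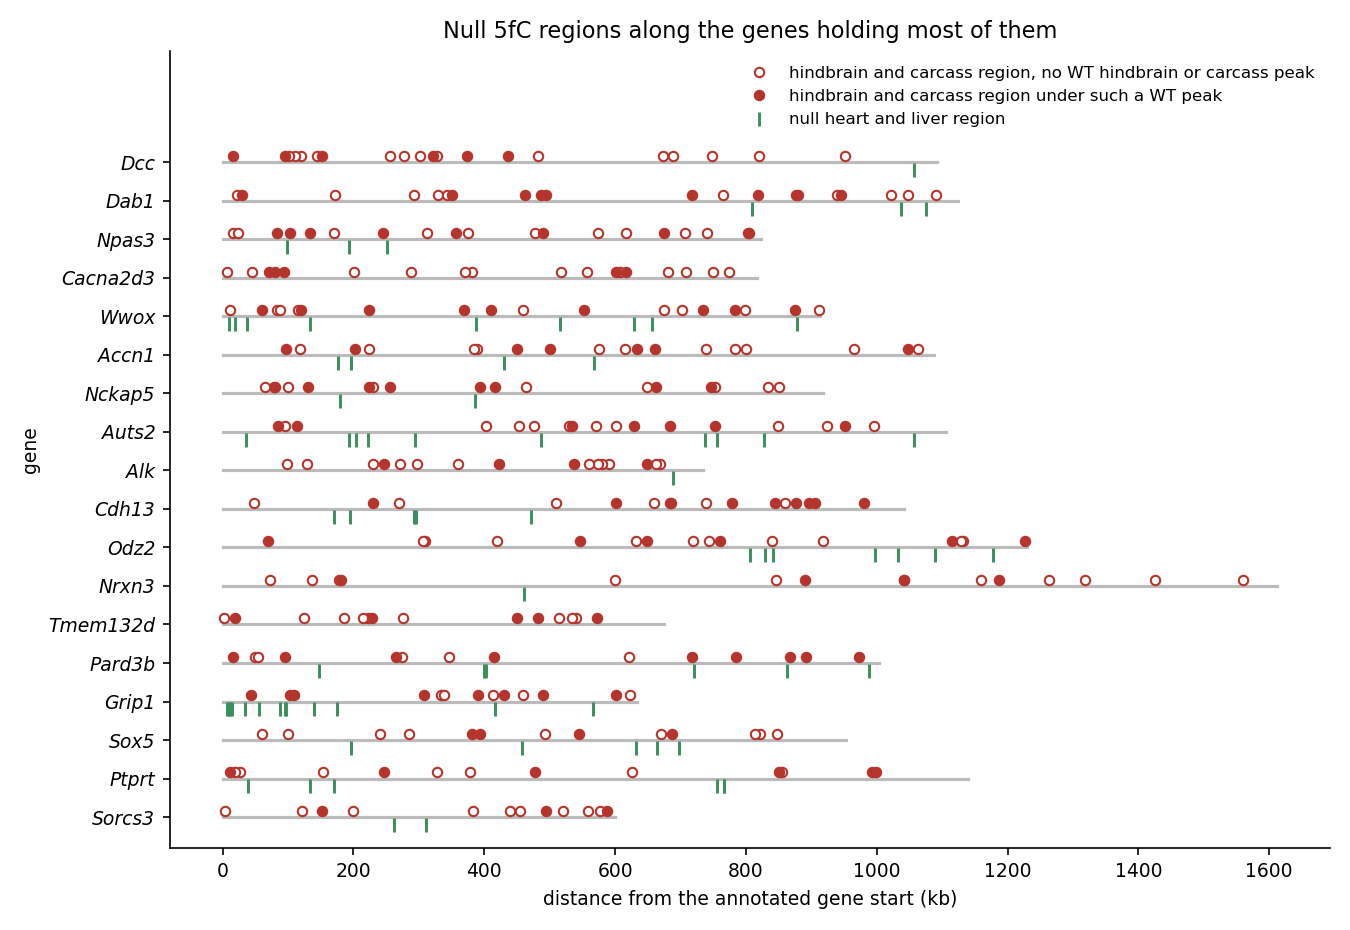
Lines are the annotated bodies of the 18 genes that enclose at most 1 other gene start, and the horizontal axis is the distance from the gene start in kb. Circles are hindbrain and carcass regions, filled where a WT hindbrain or carcass library has a peak, and green ticks are regions shared by null heart and liver. Regions are spread along whole genes, as the 20 in *Dcc* and 20 in *Dab1* show, and *Cacna2d3* and *Tmem132d* carry no tick.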

How the data were processed

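Processed data were peak lists of 20 5fC pull-down libraries. The authors trimmed reads (Trim Galore), aligned them to NCBIM37 with Bowtie2 and called peaks in each library on its own with MACS in SeqMonk, with a cutoff on p of 1e-05 and fragments set to 200 bp. Names of tools and build are those of the submitters' processing notes. The deposited values are other than counts or scores: start and end positions on a 100 bp grid. Duplicate removal and input use are not given in the sources used here. Peaks without heights limit every value to covered or not covered, and a WT library with few peaks misses weak sites.

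Both ends of each peak were counted as covered, counting from 1, and the 19 autosomes were used. Genes came from GENCODE for NCBIM37, and all sequences from that assembly. Of the listed symbols, between 22 of 26 (blood) and all of 55 (Wnt, hedgehog and Notch) matched it. Computation used Python 3.11.15, numpy 2.4.6, scipy 1.17.1, numba 0.67.0 and matplotlib 3.10.9. The region rule and exact tests were tested on simulated data.

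Regions and gene lists were chosen with earlier results of these data known. Genes named are the 20 with most regions in the body and up to 3 per list with most within 10 kb, of which 1 is not reported here. Named regions are the longest and those under most WT libraries. Alternatives were each library left out, 400 bp minimum, a 500 bp gap to excluded peaks, cut bins, peaks of at least 600 bp, touched regions in place of bases, midpoints, other promoters and gene windows, null peaks as background and, chosen after seeing the data, stricter islands, counts under WT hindbrain without each embryo and a list without *Fgfr2*. Replicates are separate embryos.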

Additional observations from a re-analysis of the deposited data

How the results depend on the processing

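The number of regions was 10578 with a minimum of 400 bp, 10895 with a 500 bp gap to excluded peaks and 17135 with excluded bins cut away. It was 12326 with the null liver of embryo i5 added, a library whose 206 autosomal peaks could hardly change the count. It was 5936 with hindbrain and carcass peaks of at least 600 bp, and 12610 to 19671 with each null library left out, the highest without the null heart of embryo i1. The WT difference of hindbrain from heart and liver stayed between 3.84 and 4.32 on the log2 scale under settings other than left-out embryos, and between 4.02 and 4.59 with each embryo left out. That of carcass was 3.23 with the 500 bp gap, 2.87 for touched regions and 3.07 against all null peaks, and 3.27 to 3.36 with an embryo left out. Relative to common regions, the WT hindbrain difference was -0.72 to -0.33 with each embryo left out, where leaving out Z3 gave -0.33. Relative to hindbrain-only regions it was -2.65 to -1.27, where leaving out Z3 gave -1.27, and -1.21 by regions touched (p = 0.375, exact sign-flip permutation). A change of background cancels in these 2 ratios. By midpoints, 41.1% of the regions were intronic, 52.9% intergenic, 6.004% exonic, 3.07% in islands and 10.9% in shores. Promoters spanning 2000 bp before and 500 bp after a start held 4.88% of the bases, stricter islands 0.170% and their shores 1.68%. Gene bodies alone gave 2992 genes, with Wnt, hedgehog and Notch genes at 10 and hepatocyte genes at 2. A window of 50 kb gave 8492 genes and moved 11 of the 15 lists by over 1.5 times, among them heart genes to 9, Hox genes to 4, neuronal differentiation factors to 33 and limb genes to 26. Over whole regions, longer than the 200 bp windows, motif shares were higher, such as 19.97% for AGATAA and 49.9% for CATCTG. For hindbrain against heart and liver: No paired analysis was possible because WT hindbrain shares no litter with WT heart or liver, while carcass was compared with heart and liver within embryos. Regions under a WT hindbrain peak numbered 1254 to 2801 with each WT hindbrain left out, the lowest without Q3. The unknown depth limits what the lack of a WT peak says, most in hindbrains 2A8 and Z3, and repeats were not examined.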
